A study of Mus musculus with 15 samples.

Results

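The heat shock transcription factor gene Hsf1 and 9 heat shock chaperone genes (Hspa1a, Hspa1b, Dnajb1, Hspb1, Hsph1, Hsp90aa1, Hsp90ab1, Hspa8 and Hspd1) were followed across 5 conditions of 4T1 cells. They were taken by symbol from the 40402 genes of the count table, and all 10 were found. A filter of at least 1 CPM (counts scaled to a library of 1000000) in at least 1 library kept 17594 genes, among them 9 of the 10, and Hspa1a did not pass it. The 10 genes are mostly cytosolic chaperones, but Hspd1 encodes the HSP60 chaperonin of the mitochondrial matrix, so the name cytosolic heat shock proteins does not cover it.

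4T1 is an established mouse triple-negative mammary carcinoma line, labelled wild type in all 5 conditions. The cells were untreated, or were treated, starting 24 hours after seeding and at a shared concentration, with an extract of blackberry (BLA) or of blueberry (BLU), or with gold nanoparticles prepared with the blackberry (BLA-A) or the blueberry (BLU-A) extract. No library of gold particles without a berry extract was analysed here, and the time from treatment to harvest is not given in the sources used here. Total RNA freed of ribosomal RNA was sequenced, and the labels list 3 replicates per condition. The sequencing report in the study's supplement lists the reads of each condition once, with subsets drawn from them, but elsewhere speaks of every column as a library. That the columns of a condition come from 1 library is therefore an inference. Columns of the same condition were closer to each other than independent draws would be (chi-square per degree of freedom from 0.0951 to 0.475). Since they differed by less than the sampling noise, they were averaged and counted as 1 sample, so that each comparison between conditions set 1 library against 1 library and has no replicate check. The labels also give every column its own batch date, and batch and column cannot be told apart.

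Chaperones keep newly made and damaged proteins folded. HSP70 proteins hold unfolded stretches with the help of J-domain partners such as DNAJB1 and nucleotide exchange factors such as HSPH1, HSP90 proteins finish the folding of kinases and receptors, and small heat shock proteins hold unfolded proteins until HSP70 can take them up. Under heat, oxidation or other damage to proteins, HSF1 is released from chaperones, forms trimers and binds heat shock elements, which are arrays of the 5-base unit NGAAN in alternating orientation, in the promoters of the inducible genes. Many tumour cells keep a high basal level of HSP90 and of the constitutive HSP70, HSPA8.

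The stretches before the start sites show which of these genes carry a heat shock element core close to the start. RefSeq promoter windows of 300 bases (250 before to 50 after the start) were at hand for 6 of the 10 genes: Hspa1a, Hspa1b, Dnajb1, Hspb1, Hsph1 and Hspd1. They were searched for both arrangements of neighbouring units, GAANNTTC and TTCNNGAA, each of which reads the same on either strand. In the sequences below, 5′ to 3′ on the gene's strand, capitals mark these cores. The stretches cover the bases before the start up to the first annotated exon, except for Hsph1 and Hspd1, where annotated exons reach over the region and only 30 bases around the cores are given. Positions are those of GRCm39.
Hspa1a, chr17:35191133-35191282, minus strand: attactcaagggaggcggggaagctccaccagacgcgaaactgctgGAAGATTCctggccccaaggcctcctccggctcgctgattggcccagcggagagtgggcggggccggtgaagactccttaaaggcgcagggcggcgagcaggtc
Hspa1b, chr17:35178215-35178364, minus strand: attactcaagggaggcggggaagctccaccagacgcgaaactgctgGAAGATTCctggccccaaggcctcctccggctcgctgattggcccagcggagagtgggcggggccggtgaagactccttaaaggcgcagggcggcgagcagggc
Dnajb1, chr8:84334654-84334803, plus strand: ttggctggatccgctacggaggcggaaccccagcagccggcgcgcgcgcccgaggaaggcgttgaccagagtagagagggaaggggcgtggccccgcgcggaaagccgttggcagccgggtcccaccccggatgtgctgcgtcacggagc
Hspb1, chr5:135916623-135916759, plus strand: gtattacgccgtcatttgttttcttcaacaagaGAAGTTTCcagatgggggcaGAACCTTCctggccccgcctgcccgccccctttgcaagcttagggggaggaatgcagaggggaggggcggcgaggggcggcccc
Hsph1, chr5:149559816-149559845, minus strand: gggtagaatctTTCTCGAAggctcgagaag
Hspd1, chr1:55127212-55127241, minus strand: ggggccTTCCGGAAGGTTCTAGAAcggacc

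Hspa1a and Hspa1b, neighbouring genes for the stress-induced HSP70, differed at 1 of the 150 bases and each held a GAANNTTC core whose first base lay at -104 from the start. Hspb1, which encodes the small heat shock protein HSP25 of the mouse, held 2 such cores, at -117 and -97. At 1 of the 2 listed starts of Hspd1 the overlapping cores at -144, -139 and -134 formed 1 continuous array, and the window of the other start held no core. The window of Hsph1 held a TTCNNGAA core at -54 and overlapping cores at 16 and 21, counted from the first of its 2 listed starts. Neither window of Dnajb1 held a core in these letters. Over all 32851 promoter windows of the same length, 15.1% held GAANNTTC or TTCNNGAA, 7.86% the former and 8.52% the latter. The window also held CCAAT, the letters of an NF-Y box, in Hspa1a, Hspa1b, Dnajb1, Hsph1 and 1 window of Hspd1, against 37.4% of all windows, and TATAAA in none of them, against 13.6%. A match is a description of the letters and not a measured binding site.

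The libraries held between 25613711 and 26956308 counts, so that 3 counts, the limit that a count of 0 allows, stood for 0.111 to 0.117 CPM. Intervals below are 95% intervals of a ratio of 2 counts (exact, conditional) and cover counting error only. Levels are TMM-normalized CPM, which are not divided by gene length and are compared only within a gene. Differences are log2 fold changes of CPM plus a pseudocount of 0.5, and a gene was counted as past the threshold when its log2 fold change exceeded 1 in size, a 2-fold difference. Epithelial markers were present in all libraries (Epcam 39.7 to 68.8 CPM, Krt8 175.4 to 434.4, Krt18 451.2 to 689.0, Cdh1 123.7 to 232.5, Krt7 136.5 to 281.2), although the basal keratin Krt14 stayed at or under 0.834 CPM. Of the 9 immune, endothelial and stromal markers, 8 stayed at or under 2.22 CPM (Ptprc, Adgre1, Cd3e, Cd79a, Pecam1, Cdh5, Col1a1 and Dcn), and Pdgfra was at 86.0 to 102.2 CPM.

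The BLA-A library held the clearest differences. The inducible HSP70 gene Hspa1b, its J-domain partner Dnajb1 and the small heat shock protein gene Hspb1 were each more than 2-fold higher there than in untreated cells, Hsp90ab1 was 1.47-fold higher, and Hspd1 was 2.39-fold lower. In the BLA, BLU and BLU-A libraries none of the 10 genes passed the threshold at the pseudocount of 0.5 CPM. In these the abundant chaperones (Hsph1, Hsp90aa1, Hsp90ab1, Hspa8 and Hspd1) were lower than in untreated cells, at ratios from 0.561 (Hspd1 in BLA) to 0.875 (Hspa8 in BLU-A). In bulk RNA, less RNA of a gene per cell and fewer cells that make it cannot be told apart.

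**Figure D1:**
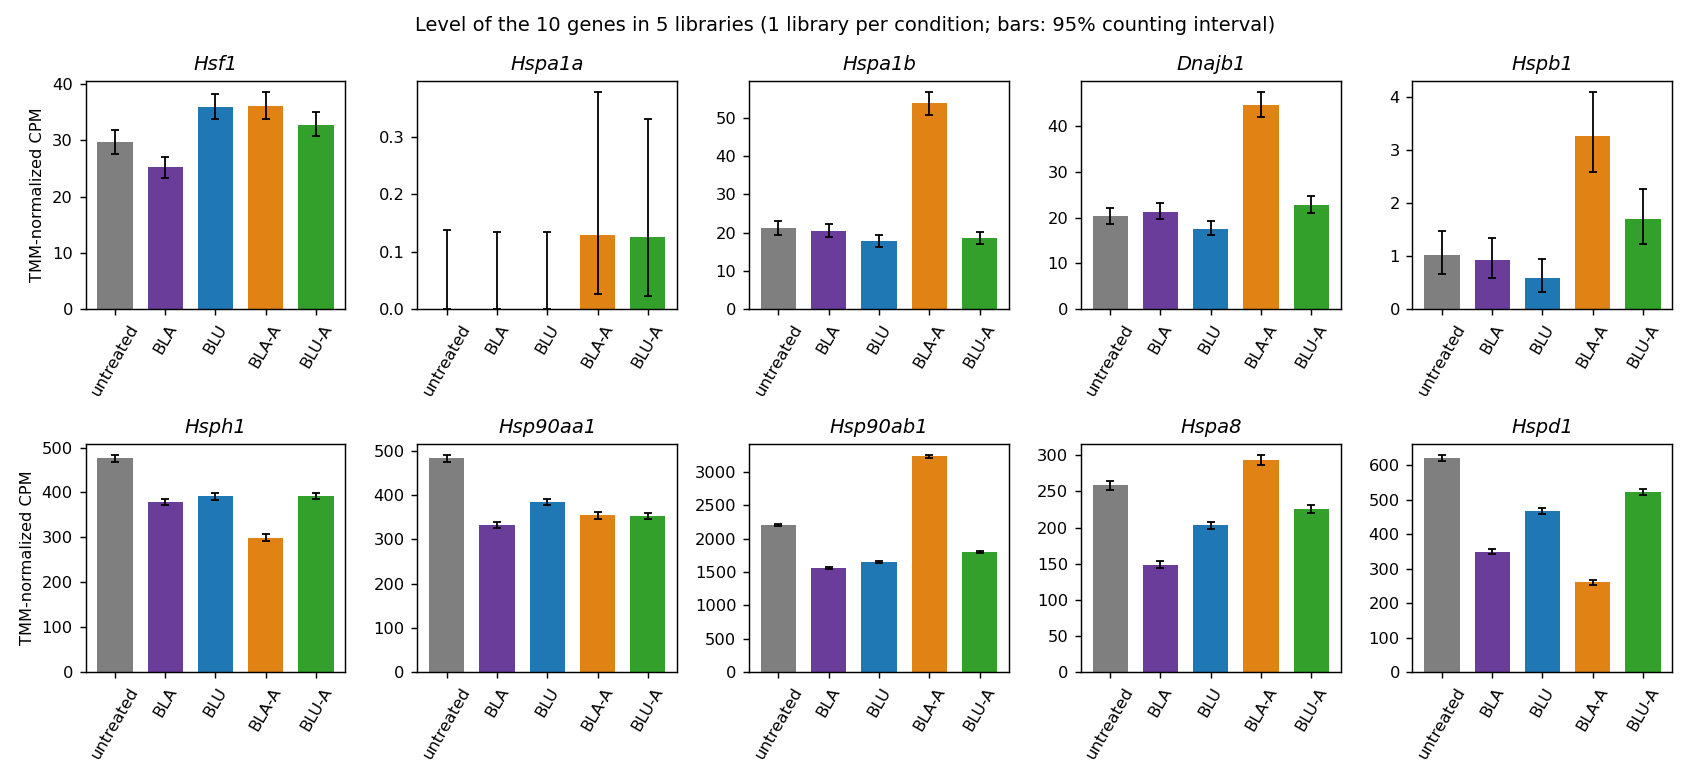
TMM-normalized CPM (y axis, from 0, a scale of its own for each gene) of the 10 genes in the 5 libraries (x axis), 1 bar per library, with 95% counting intervals as error bars. The BLA-A bar stands above the others for Hspa1b, Dnajb1, Hspb1, Hsp90ab1 and Hspa8 and below them for Hsph1 and Hspd1. Hspa1a was at 0 in 3 libraries.

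Hsf1, the factor itself, was at 29.7 CPM in untreated cells, 25.2 in BLA, 36.1 in BLA-A, 36.0 in BLU and 32.8 in BLU-A. The span from lowest to highest was 1.44-fold, the narrowest of the 9 measurable genes. BLU and BLA-A were level with each other at the top, and BLA was the lowest library. Against untreated cells its log2 fold changes were -0.23 in BLA, 0.28 in BLA-A, 0.28 in BLU and 0.14 in BLU-A. With scaling by total counts alone those of BLA-A and BLU were 0.09 and 0.27, so that their order depends on the scaling. Hsf1 (chromosome 15, 76361558 to 76388138, plus strand) shares 3056 bases with Dgat1 and 522 with Bop1 on the other strand. Bop1 had 1217 counts in untreated and 1751 in BLA-A cells, against 791.3 and 837.3 for Hsf1.

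Hspa1b and Hspa1a both encode the stress-induced HSP70, and their mRNAs were 99.1% identical over 2200 aligned bases. Reads that map equally well to both were left out of the counts by the authors. Matches elsewhere in GRCm39, of at least 100 bases at 98% identity or more, covered 74.0% of the Hspa1a and 78.5% of the Hspa1b mRNA. Hspa1a had 0 counts in every column of untreated, BLA and BLU cells, 2 to 4 in BLA-A and 3 to 4 in BLU-A. Means of 3.0 and 3.3 counts are at the limit that a count of 0 allows, and no fold is given. Hspa1b was at 21.1 CPM in untreated cells, 20.5 in BLA, 53.7 in BLA-A, 17.8 in BLU and 18.5 in BLU-A. The BLA-A library stood apart from the other 4, among which BLA and untreated cells were not apart beyond counting error. The columns of BLA-A held 1235 to 1251 counts and those of the other libraries 475 to 570. The ratio of BLA-A to untreated cells was 2.54 (2.3 to 2.81), a log2 fold change of 1.32.

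Dnajb1, the J-domain protein that hands substrates to HSP70 and returns HSF1 to its inactive form, was likewise highest in BLA-A. It was at 20.3 CPM in untreated cells, 21.3 in BLA, 44.6 in BLA-A, 17.6 in BLU and 22.8 in BLU-A. The BLA-A library was again alone above the others, at a ratio of 2.2 to untreated cells (1.98 to 2.44). The ratios of BLA (0.932 to 1.18) and BLU-A (1.0 to 1.26) included no difference, while BLU was lower at 0.869 (0.767 to 0.984). No other annotated gene overlaps Dnajb1 (chromosome 8, 84334811 to 84339820, plus strand), and none of its 3534-base mRNA matched elsewhere in the genome, so that its counts are not subject to the copies that limit Hspa1b. With scaling by total counts alone, its log2 fold change in BLA-A went from 1.11 to 0.92.

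Hspb1 was scarce. The columns held 23 to 31 counts in untreated cells, 24 to 27 in BLA, 73 to 79 in BLA-A, 16 to 17 in BLU and 41 to 49 in BLU-A, and 89.0% of its 916-base mRNA has a match elsewhere in the genome. These counts stood for 1.03, 0.93, 3.26, 0.593 and 1.7 CPM. The ratio of BLA-A to untreated cells was 3.24 (2.06 to 5.23) and that of BLU-A 1.68 (1.02 to 2.81), while the intervals of BLA (0.504 to 1.62) and BLU (0.289 to 1.1) included 1. The log2 fold change in BLA-A was 1.3 at the pseudocount of 0.5 CPM and 0.8 at 2 CPM, below the threshold.

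Hsph1, the HSP110 that exchanges the nucleotide of HSP70, was highest in untreated cells. It was at 475.8 CPM there, 378.1 in BLA, 299.3 in BLA-A, 390.9 in BLU and 391.8 in BLU-A. BLU and BLU-A were not apart (ratio 1.0, 0.976 to 1.03), and BLA-A was lowest, with a log2 fold change of -0.67. The HSP110 gene was thus lower in the very library in which Hspa1b and Dnajb1 were higher. None of the Hsph1 mRNA matched elsewhere. On the other strand Hsph1 shares 13147 bases with the noncoding RNA gene Gm73411, for which no counts were at hand, and 289 with Gm20005. Gm20005 had 157.0 counts in untreated and 96.0 in BLA-A cells, against 12682.3 and 6937.0 for Hsph1.

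The 2 cytosolic HSP90 genes parted in BLA-A. Hsp90aa1, the stress-responsive alpha form, was at 483.8 CPM in untreated cells, 332.1 in BLA, 354.8 in BLA-A, 384.7 in BLU and 353.2 in BLU-A. All 4 treated libraries were below the untreated one, and BLA-A and BLU-A were not apart (ratio 1.0, 0.975 to 1.03). Hsp90ab1, the constitutive beta form and the most counted of the 10 genes, was at 2206.8 CPM in untreated cells, 1558.9 in BLA, 3238.8 in BLA-A, 1656.3 in BLU and 1799.7 in BLU-A. It was lower than in untreated cells in 3 libraries and 1.47-fold higher (1.45 to 1.48) in BLA-A. For Hsp90aa1, 78.6% of the mRNA had matches elsewhere, for Hsp90ab1 6.4%. Hsp90ab1 shares 2362 bases with Slc35b2 on the other strand, whose counts were 609.7 in untreated and 1399 in BLA-A cells, against 58820 and 75061 for Hsp90ab1.

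Hspa8, the constitutive HSP70, was at 258.4 CPM in untreated cells, 148.6 in BLA, 294.0 in BLA-A, 202.9 in BLU and 226.0 in BLU-A. Its lowest value, in BLA, was 0.575 of the untreated one (0.553 to 0.598), a log2 fold change of -0.8. In BLA-A the log2 fold change was 0.19, and -0.01 with scaling by total counts alone, so that its direction there depends on the scaling. Matches elsewhere cover 87.9% of the Hspa8 mRNA.

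In BLA-A, Hspd1 differed in the other direction from Hspa1b. It was at 621.3 CPM in untreated cells, 348.5 in BLA, 259.8 in BLA-A, 467.8 in BLU and 521.3 in BLU-A. Every treated library was below the untreated one, BLA-A lowest at a ratio of 0.418 (0.406 to 0.431) and a log2 fold change of -1.26. Hspe1, which encodes the HSP10 lid of the same mitochondrial chaperonin and lies head to head with Hspd1, was singled out after its values were seen. It had 987.0 counts in untreated cells, 508.7 in BLA, 1143 in BLA-A, 731.0 in BLU and 771.7 in BLU-A, with log2 fold changes of -0.97, 0.41, -0.47 and -0.34 in the same order. Both were below untreated cells in 3 treatments, and in BLA-A Hspd1 was below and Hspe1 above. By its GENCODE extent, Hspd1 (chromosome 1, 55116989 to 55171038, minus strand) shares 3217 bases with Hspe1 on the other strand. Of the Hspd1 mRNA, 92.2% has a match elsewhere in the genome.

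Reads were counted on whole genes, introns included, and the authors state that counting was by strand. Rabepk and Hspa5, which lie on opposite strands and share 5980 bases, had 62155 and 66128 counts in untreated cells, and 33484 and 37336 in BLA-A cells. The pair had 60994 and 65243 counts in BLA, 50060 and 52665 in BLU, and 53629 and 56517 in BLU-A. Their counts were thus near each other in all 5 libraries. How far the reads of a gene are kept apart from those of a gene on its other strand was not tested further. Where most of an mRNA has copies elsewhere, as in Hspa1a, Hspa1b, Hspb1, Hspa8, Hsp90aa1 and Hspd1, where in the gene the counted reads fall was not examined.

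**Figure D2:**
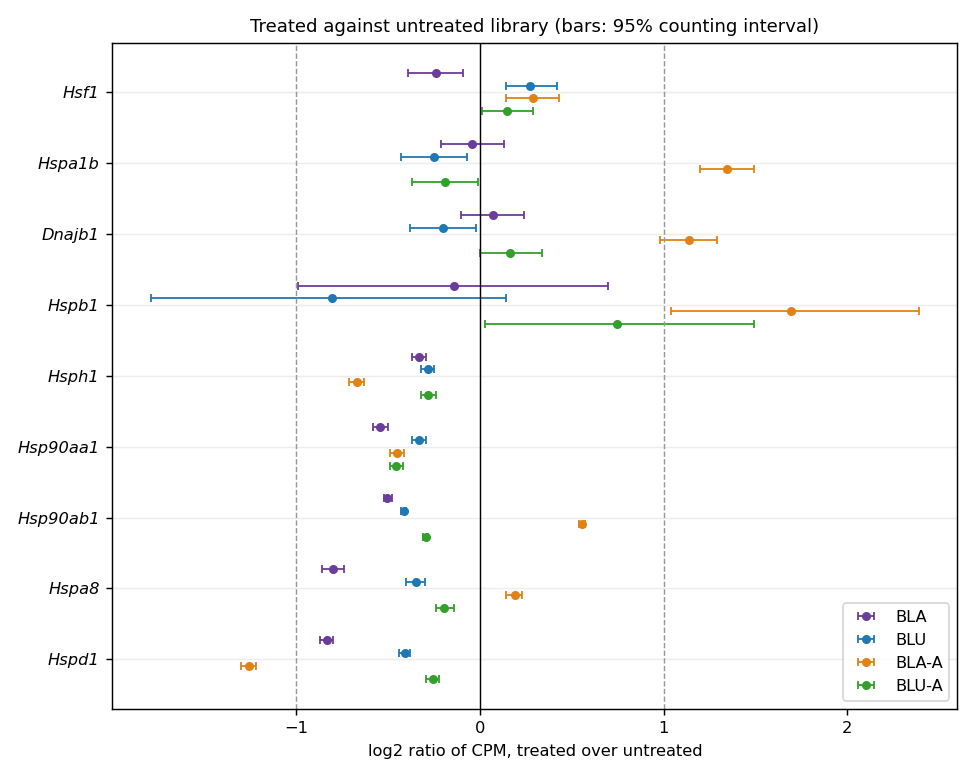
Log2 ratio of CPM of each treated library over the untreated library (x axis, no pseudocount) for 9 genes (y axis), 1 colour per treatment, with 95% counting intervals as bars and dashed lines at a log2 ratio of 1 in either direction. Hspa1b, Dnajb1 and Hspb1 lie past the right line and Hspd1 past the left line in BLA-A. Hspa1a is left out because it had 0 counts in untreated cells.

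Counted over the 10 genes, 3 were past the threshold and higher in BLA-A (Hspa1b, Hspb1 and Dnajb1) and 1 was lower (Hspd1). Of all genes tested, 8.55% were higher and 12.3% lower by the same threshold in BLA-A, and among the 4540 genes with a mean of at least 50 CPM 10.0% passed it in either direction. In BLA 0 of the 10 passed, where 7.91% of genes were higher and 8.5% lower (3.92% of abundant genes passed). In BLU it was 0 of 10, with 5.64% higher and 4.61% lower (1.96% of abundant genes). In BLU-A it was 0 of 10, with 3.39% higher and 4.48% lower (0.485% of abundant genes). The median log2 fold change of the 10 genes was -0.28 in BLA, 0.31 in BLA-A, -0.31 in BLU and -0.19 in BLU-A, with Hspa1a entered on the pseudocount scale, where its fitted value depends on the pseudocount (0.28 in BLA-A with Hspa1a and Hspa1b summed). The medians over all genes, in the same order, were -0.01, -0.01, -0.01 and 0.0. The summed level of the 10 genes was 4118.2 CPM in untreated cells, 2834.1 in BLA, 4584.5 in BLA-A, 3174.6 in BLU and 3368.1 in BLU-A. Most of the counts in it were those of Hsp90ab1. The sum is not divided by gene length and lacks reads that map to several places, so it does not rank the genes by amount of RNA.

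The BLA-A library also stood apart in other measures. The noncoding RNA Gm26917 took 7.84% of its counts against 4.55 to 6.4% in the other libraries. The 13 protein genes of the mitochondrial genome took 2.93% against 0.917 to 1.55%, and its TMM factor was 0.905 against 1.01 to 1.03. The share of genes past the threshold differed with the span of the gene. Among genes with a mean of at least 10 CPM, in classes chosen after the values were seen, 20.9% of the 579 genes spanning up to 5 kb were past the threshold and higher in BLA-A, against 4.76% of the 6159 genes over 20 kb. Past the threshold and lower were 10.5% of the short and 3.34% of the long genes. The short and long classes had median log2 fold changes of 0.25 and 0.07 in BLA-A. Of the 2748 genes from 5 to 20 kb, 11.5% were past the threshold and higher and 5.9% lower in BLA-A, with a median of 0.13. Hspb1 and Hspa1b span 1658 and 2803 bases. Dnajb1 at 5010 bases, Hsp90aa1 at 12325, Hsp90ab1 at 13398 and Hspa8 at 19410 fall in the middle class. Hsph1, Hsf1 and Hspd1 span 22521, 26581 and 54050. All spans are those of GENCODE, while counts were made on RefSeq genes. The promoter windows of Hspd1 place its RefSeq starts near 55127092 and 55127403, well inside its GENCODE extent of 55116989 to 55171038. The span class of Hspd1 on RefSeq features was not examined. In BLA the short, middle and long classes had medians of -0.41, -0.24 and 0.11. The medians in the same order were -0.34, -0.19 and 0.09 in BLU, and -0.11, -0.08 and 0.05 in BLU-A. The part of gene span and library composition in the results above was not tested.

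The extract alone and the nanoparticles made with it were compared within each berry. For blackberry, 4 of the 10 genes were past the threshold and higher in BLA-A than in BLA, where 11.6% of all genes were. They were Hspb1 (3.57-fold, 2.25 to 5.86), Hspa1b (2.62-fold, 2.37 to 2.9), Dnajb1 (2.09-fold, 1.89 to 2.32) and Hsp90ab1 (2.08-fold, 2.05 to 2.1), and Hspa8 lay just under it at 1.98-fold (1.9 to 2.06). Hsph1 and Hspd1 were lower, at ratios of 0.792 and 0.746. Hsf1 was 1.44-fold higher (1.3 to 1.59). The count depends on the scaling and went to 2 with total counts alone, when Dnajb1 and Hsp90ab1 had log2 fold changes of 0.89 and 0.9.

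For blueberry, 1 of the 10 was past the threshold and higher in BLU-A than in BLU, against 2.89% of all genes. It was Hspb1, at 2.92-fold (1.62 to 5.54) on 45 against 16.3 counts and a log2 fold change of 1.01, which without replicate 2 was 0.95. Dnajb1 was 1.29-fold higher (1.15 to 1.46), and Hspa1b was not apart (ratio 1.04, 0.917 to 1.18). Whether the difference between nanoparticles and extract is itself unlike in the 2 berries could not be tested with 1 library each.

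**Figure D3:**
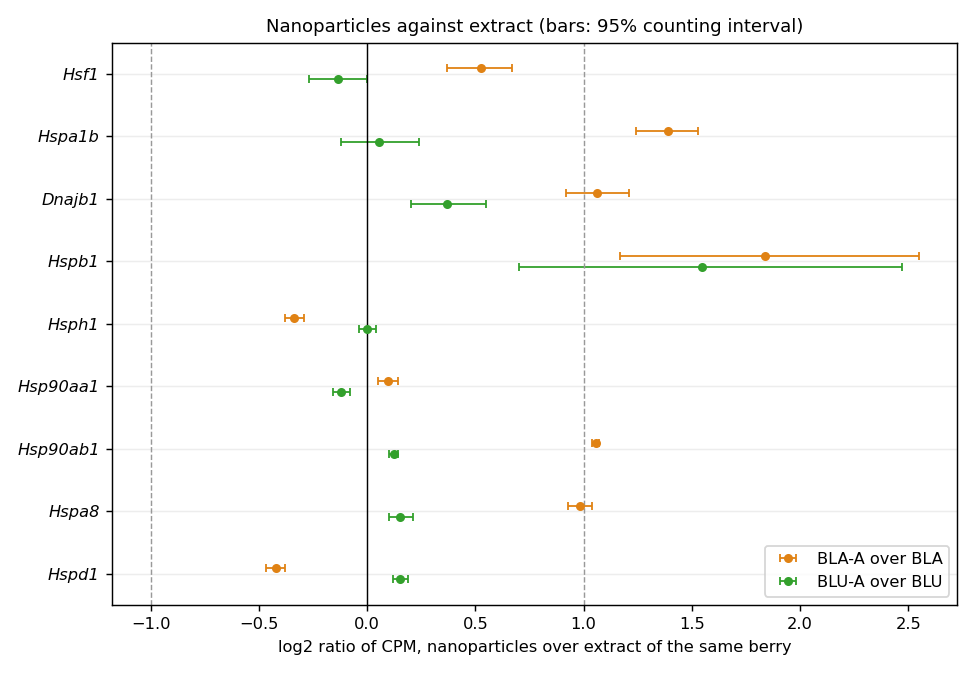
Log2 ratio of CPM of nanoparticles over the extract of the same berry (x axis, no pseudocount) for 9 genes (y axis), with 95% counting intervals as bars. BLA-A over BLA lies past 1 for Hspa1b, Dnajb1, Hspb1 and Hsp90ab1, and BLU-A over BLU lies past 1 for Hspb1 alone among the 9.

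Between the extracts, 0 of the 10 genes passed the threshold, against 10.5% of all genes. Hsf1 was lower in BLA than in BLU at a ratio of 0.698 (0.632 to 0.77), as were Hspa8 (0.732) and Hspd1 (0.745). Between the nanoparticles, 2 of the 10 passed, against 19.2% of all genes. Hspa1b was 2.9-fold higher in BLA-A than in BLU-A (2.61 to 3.22), and Hspd1 was lower at a ratio of 0.498 (0.483 to 0.514), which lies at the threshold and was short of it in 3 of the alternative scalings and filters.

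The test made over the 5 libraries set the 4 treated libraries against the untreated one (edgeR quasi-likelihood test, Benjamini-Hochberg adjustment), and the spread in it comes from the differences between the treatments. None of the 9 genes tested passed, and all had an adjusted p of 0.999. Of all genes, 0.0227% passed (4 of 17594), and 478 had an unadjusted p under 0.05, with 0 of the 9 among them. DESeq2's Wald test called 0 of the 9 and 19 genes in all. The lowest unadjusted p of edgeR, 0.0762, was that of Hsp90aa1 (log2 fold change -0.44), followed by Hspd1 (-0.64) and Hsph1 (-0.38). These 3 genes were below the untreated library in 4 of 4 treated libraries. Without the BLA-A library, 3 of the 9 had an unadjusted p under 0.05, as had 1837 of the 17441 genes then tested, and the smallest among the 9 was 0.00693. None of the 9 passed after adjustment (adjusted p = 0.247 at the smallest, edgeR quasi-likelihood test), while 44 genes did in all.

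Other chaperone genes were taken from 9 lists, which together held 85 genes past the filter. Below untreated cells were 73 of the 85 in BLA, 44 in BLA-A, 74 in BLU and 67 in BLU-A. Their median log2 fold changes, in the same order, were -0.34, -0.01, -0.26 and -0.17, against -0.01, -0.01, -0.01 and 0.0 over all genes. Past the threshold were 1 higher and 4 lower in BLA, 4 higher and 4 lower in BLA-A, 2 lower in BLU and 0 in BLU-A. These were 5.88, 9.41, 2.35 and 0.0% of the 85 genes, in each treatment less than the shares of all genes given above (in BLA-A 8.55% higher and 12.3% lower). Of the 4540 genes with a mean of at least 50 CPM, 3.92, 10.0, 1.96 and 0.485% passed in either direction, in the same order. The share of the lists was above that of these abundant genes in BLA and BLU and below it in BLA-A and BLU-A. The 85 genes were not split by level.

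HSP90 and HSP70 cochaperones (16 genes) were below untreated cells throughout BLA, BLU and BLU-A (16 of 16 in each) and in 9 of 16 in BLA-A, with medians of -0.44, -0.29, -0.19 and -0.07. In BLA, Cacybp, a Siah1-interacting protein, was past the threshold (124.3 CPM in untreated cells, 60.5 in BLA, log2 fold change -1.03). In BLA-A, Sgta, which guides tail-anchored proteins, went from 36.6 to 78.6 CPM (1.09). The chaperonin TRiC, which folds actin and tubulin, and prefoldin (14 genes) were lower in 14 of 14 in BLA, 13 of 14 in BLU and BLU-A and 10 of 14 in BLA-A, where Pfdn6 (59.2 to 18.9 CPM, -1.62) and the TRiC subunit Tcp1 (705.1 to 318.8 CPM, -1.14) were past the threshold. Medians for this list were -0.5 in BLA, -0.39 in BLA-A, -0.25 in BLU and -0.19 in BLU-A.

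Among the other genes known to be inducible by HSF1 (17 genes), 3 were past the threshold and higher in BLA-A, where 8.55% of all genes were. They were Ubb, a polyubiquitin gene (52.1 CPM in untreated cells, 249.4 in BLA-A, log2 fold change 2.25), Serpinh1, the collagen chaperone HSP47 (177.2 and 455.6 CPM, 1.36), and Ier5, which aids the activation of HSF1 (19.0 and 39.4 CPM, 1.04). In BLU-A these were at -0.22, -0.11 and 0.17. Zfand2a, an arsenite-inducible gene singled out after its values were seen, was above untreated cells in 4 of 4 treated libraries, at 69.0 CPM in untreated cells, 140.5 in BLA, 135.9 in BLA-A, 110.6 in BLU and 96.0 in BLU-A. Its log2 fold change of 1.02 in BLA made it the 1 gene of the 9 lists past the threshold and higher there. The list as a whole was split in BLA-A, with 10 above and 7 below untreated cells and a median of 0.08, while 15 of 17 were below in BLA (median -0.31), 16 in BLU (-0.34) and 14 in BLU-A (-0.23). Among the 7 genes of the same list below untreated cells in BLA-A were Bag3 (-0.24) and Dnaja1 (-0.44), picked out after their values were seen. Lowest of the 7 was Cacybp, at -0.62.

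Small heat shock proteins other than Hspb1 had 4 of 8 genes past the filter. Cryab, the alpha-B crystallin gene, was at 12.0 CPM in untreated cells, 5.95 in BLA, 16.4 in BLA-A, 5.0 in BLU (log2 fold change -1.19) and 7.98 in BLU-A, and Hspb6 was at 8.48, 3.93 (-1.02), 8.66, 4.15 and 5.81 CPM in the same order. The 4 genes had medians of -0.9 in BLA, 0.23 in BLA-A, -0.9 in BLU and -0.43 in BLU-A. HSP70 and HSP110 paralogs (8 genes) had medians from -0.22 to 0.18, and Hspa12a was past the threshold in BLU (3.46 to 0.907 CPM, -1.49) and BLA-A (1.37 CPM, -1.09). J-domain proteins (13 genes) had medians from -0.12 to -0.03, with Dnajc2, a ribosome-bound chaperone, at -1.11 in BLA-A (118.2 to 54.4 CPM). Nucleotide exchange factors of HSP70 (7 genes) had none past the threshold and medians from -0.34 to -0.01, as had the chaperones of the endoplasmic reticulum and mitochondria (10 genes), with medians from -0.29 to -0.07. Regulators and relatives of HSF1 (9 of 10 genes past the filter) had medians from -0.23 to 0.08, and Ier5 was the 1 gene past the threshold in BLA-A.

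**Figure D4:**
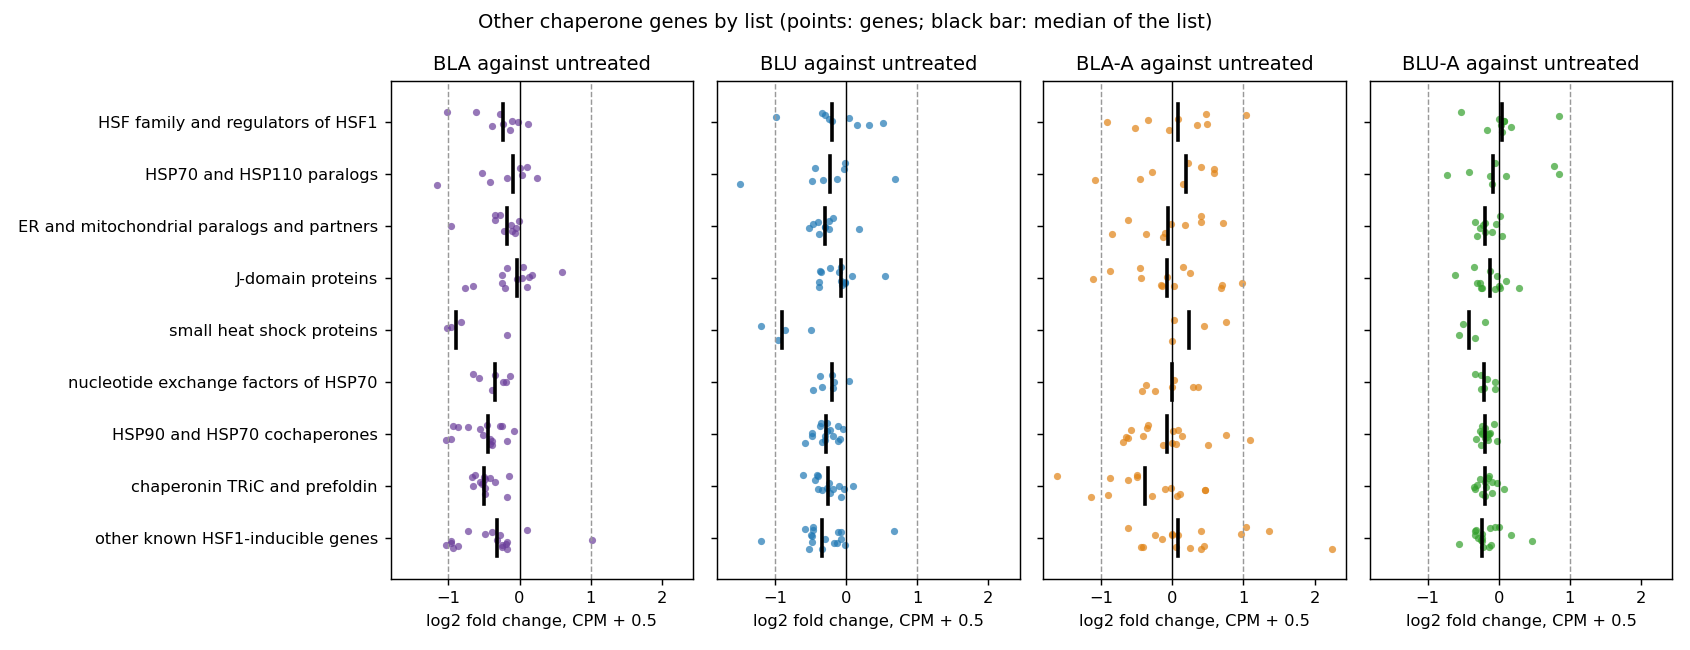
Log2 fold change of CPM plus 0.5 against untreated cells (x axis) for the genes of 9 chaperone lists past the filter (y axis, 1 row per list), 1 panel per treatment, with points for genes and a black bar at the median of each list. The medians lie at or below -0.03 in BLA and BLU, and Ubb is the point farthest to the right, at 2.25 in BLA-A.

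The genes most like the 3 widest-ranging members were looked for among 9756 genes with a mean of at least 10 CPM, by the Euclidean distance between centred log2 profiles over the 5 libraries. Nearest to Hspa1b were Adamts1 (distance 0.0643), Capn1 (0.0834) and Gpd1l (0.0846). Adamts1 was at 43.6, 43.7, 36.3, 113.5 and 37.8 CPM in untreated, BLA, BLU, BLA-A and BLU-A cells. Nearest to Dnajb1 were Tapbp (0.0616), Ap2a1 (0.0847) and H6pd (0.0863), and to Hspb1 Ptpn6 (0.131), Tmem161a (0.278) and Mex3b (0.287). None of these is a chaperone of the 9 lists.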

How the data were processed

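Bulk RNA-seq of 5 conditions of 4T1 cells was used. The authors removed ribosomal RNA, aligned reads to GRCm39 with STAR, and deposited raw counts per gene from OmicsBox. They state that counts were taken by strand on RefSeq gene features, without reads that map to several places. Their deposited tables of fold changes and p-values and of gene set scores hold their own comparisons and were not used. The 3 columns of each condition (25611976 to 26957141 counts each) were averaged into 1 library. The labels number them 1 to 3 in every condition, but same-numbered columns did not deviate together (mean correlation -0.00108 over 30 pairs). If the columns of a condition are draws of 1 library, this check cannot show a pairing of samples. The columns were not treated as paired.

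Genes with 1 CPM in 1 of the 5 libraries were kept, TMM factors came from edgeR 4.0.16 (R 4.3.3), and fold changes were computed as differences of log2(CPM + 0.5). The pooled test was edgeR's quasi-likelihood test (common biological coefficient of variation 0.451, 3 residual degrees of freedom), adjusted over all genes kept at a threshold of 0.05, with DESeq2 1.42.0 as an alternative. It was tested on simulated data. Alternatives covered scaling, filter, pseudocount, columns left out, a replicate block, libraries left out and the fold threshold. Positions came from GENCODE M39, matches of mRNAs from BLAST 2.17.0, and promoters from RefSeq windows on GRCm38.p6, placed on GRCm39 by exact match. Python 3.11.15, pandas 2.3.3 and scipy 1.17.1 were used.

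The 10 genes and all lists were chosen with earlier results of these data known. Named genes are the 10, up to 4 genes per list past the threshold with at least 50 counts, and the 3 nearest profiles of the 3 widest-ranging members. Hspe1, Bag3, Dnaja1, Zfand2a, the genes overlapping the members, and Rabepk and Hspa5 fall outside this rule.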

Additional observations from a re-analysis of the deposited data

Results flagged for a closer look

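For Hsp90aa1 and Hspd1 the nanoparticles lay on opposite sides of the extract in the 2 berries, each beyond counting error. Hsp90aa1 differed by 0.1 (log2) between BLA-A and BLA and by -0.12 between BLU-A and BLU. Hspd1 differed by -0.42 and 0.16. Hsf1 also lay on opposite sides, at 0.51 and -0.13, with the upper end of its blueberry ratio interval (0.831 to 1.0) at the edge of counting error. The share of all genes that lie on opposite sides is not given here. With 1 library per condition the difference between the berries was not tested, and with scaling by total counts alone the value of Hsp90aa1 in blackberry was -0.06.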

How the results depend on the processing

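Single-gene values under the alternatives were held against the distance from the middle to the end of their log2 counting interval. Of these, 834 moved by no more than that and 102 by more, and no called value changed sign. A fixed limit was used for Hspa1a, which has no interval. Scaling by total counts alone moved the median of all genes in BLA-A by -0.19, and leaving out the gene with the most counts moved it by 0.12. The median of the 10 genes in BLA-A was then 0.2 with total counts, and 0.42 with a pseudocount of 0.1 CPM, and in BLA -0.42 without Hspb1 and Hspa1a (chosen after seeing the data). Between BLA-A and BLA the median was 0.59 with total counts, 0.85 without the gene with the most counts, 0.93 with 10 counts in every library, 1.02 with a pseudocount of 0.1 CPM and 0.98 with Hspa1a and Hspa1b summed. The number of genes past the threshold there was 2 with total counts, 2 with 10 counts in every library and 2 with a pseudocount of 2 CPM. In BLU-A against untreated cells 1 gene passed with a pseudocount of 0.1 CPM, which was Hspa1a at 1.17 on a mean of 3.3 counts. Between BLU-A and BLU the number was 2 with a pseudocount of 0.1 CPM, 0 with 2 CPM, 0 without Hspb1 and Hspa1a, and 0 to 1 with 1 column left out. Between BLA-A and BLU-A it was 1 with a pseudocount of 2 CPM, and the median was 0.08 with total counts and 0.38 with Hspa1a and Hspa1b summed. At a threshold of 1.5-fold, 2 genes passed in BLA and 5 between BLA-A and BLU-A.

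With the 15 columns and a replicate block, the fold changes gave medians of 0.98 between BLA-A and BLA and 0.38 between BLA-A and BLU-A, as they did with no replicate block (chosen after seeing the data), over the 9 genes that could be fitted. The columns were counted as 1 library, so only fold changes were read from these fits. The block changed no number of genes past the threshold. Hspb1 and Hspa1a had under 100 counts in every library, and matches elsewhere covered 89.0% and 74.0% of their mRNAs. The part of depth and of left-out reads in these low counts was not tested. The pooled test called 0 members under its 9 alternatives, at unadjusted p from 0.00693 to 0.16 for the lowest gene.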
